A study of Mus musculus with 12 samples.

Results

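The nuclear pore and nuclear transport genes were taken as the protein-coding rows of the count table whose symbols name a nucleoporin (Nup followed by a digit), a karyopherin (Kpna, Kpnb), a numbered importin or exportin with Xpot, Ran, a numbered Ran-binding protein or Rangap1. The rule found 51 of the 34513 genes in the table. No measured value entered it, but the members were chosen with earlier results of these data known. Of these genes, 48 passed the expression filter and were tested. The other 3, Kpna7, Nup62cl and Ranbp3l, had 0 to 7 counts in every library. RNA was sequenced from cultures of 3 mouse lines: Melan-A, a non-tumorigenic melanocyte line, and the melanoma lines B16F0 and B16F10. Each line was grown without treatment (control) or with SX-682, an antagonist of the chemokine receptors CXCR1 and CXCR2, which gave 6 groups of 2 libraries. The comparisons ask how each line responded to the compound, whether the response differed among the lines, and how the untreated lines differed. The dose and duration for these cultures are not given in the sources used here. Each group is a single cell line, and Melan-A is the only non-tumorigenic line, so line identity and tumorigenicity cannot be told apart.

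The nuclear pore is a ring-shaped channel through the nuclear envelope, built of a Y-shaped outer scaffold, an inner ring, a central channel lined with phenylalanine-glycine (FG) repeats, filaments on the cytoplasmic face and a basket on the nuclear face. Importins carry cargo in and exportins carry it out, and the small GTPase Ran sets the direction, being bound to GTP in the nucleus and to GDP in the cytoplasm. In dividing cells several of these proteins also act on the mitotic spindle and in rebuilding the nuclear envelope.

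Library totals were between 48876982 and 85322092 counts. Levels are given as CPM, the counts of a gene scaled to a common library size by the trimmed mean of M values (TMM), and levels are compared between genes only as CPM per kilobase of gene length. These are shares of each library's RNA, so fewer cells expressing a gene and less RNA per cell cannot be told apart. The 7 melanocytic markers summed to 1344 to 1374 CPM in Melan-A and to 14947 CPM or more in the B16 lines. Tyr, which encodes tyrosinase, was at 0.253 to 0.892 CPM in Melan-A. Sox10 alone of this list was higher in Melan-A both in controls and with SX-682, at 655 to 753 CPM against 351 to 589 CPM in the B16 lines. With SX-682, Mitf in B16F0 was at 86.8 and 82.4 CPM. That was near its level in Melan-A with SX-682 (78 and 80.5 CPM) and below the Melan-A controls (103 and 101 CPM). The 6 leukocyte markers summed to 23.1 to 23.3 CPM in Melan-A controls and to 48.9 to 49.8 CPM with SX-682, of which Cd68 was 15.9 and 16.1 and then 43.9 and 45.3 CPM, Lyz2 was 6.93 and 7.07 and then 4.73 and 4.38 CPM, and Ptprc was 0.255 CPM or less. The fibroblast list summed to 93.6 to 116 CPM in Melan-A and to 8.43 to 16.8 CPM in the B16 lines. For the keratinocyte list the sums were 7.28 to 8.35 CPM in Melan-A and 0.845 to 1.37 CPM in the B16 lines. For the endothelial list they were 1.27 to 2.24 CPM and 0 to 1.08 CPM. These sums were thus higher in Melan-A than in either B16 line. The part of other cell types in the results was not tested.

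Promoters are shown for 4 members that later results turn on, picked after their values were seen: Kpna2 and Ranbp1, which were lower with SX-682 in every line, Ipo4, which was higher in every line, and Nup210, which was close to absent from Melan-A. Each run is 250 bases before to 50 after the RefSeq start on build GRCm38.p6, 5′ to 3′ on the gene's strand, which is the minus strand for all of them. Capitals mark the letters of motifs found on either strand: CCAAT, the cell cycle homology region (CHR, TTTGAA or TTCGAA), the E2F motif (TTTCCCGC or TTTGGCGC) and the E-box (CACGTG). The windows are chr11:106999476-106999775 for Kpna2, chr16:18248645-18248944 for Ranbp1, chr14:55635635-55635934 for Ipo4 and chr6:91116777-91117076 for Nup210.
Kpna2: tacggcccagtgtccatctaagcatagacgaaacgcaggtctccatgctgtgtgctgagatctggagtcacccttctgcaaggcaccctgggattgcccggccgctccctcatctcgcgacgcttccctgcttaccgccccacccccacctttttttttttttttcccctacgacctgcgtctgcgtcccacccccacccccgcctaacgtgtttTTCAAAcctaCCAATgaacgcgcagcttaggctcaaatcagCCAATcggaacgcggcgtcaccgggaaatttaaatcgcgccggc
Ranbp1: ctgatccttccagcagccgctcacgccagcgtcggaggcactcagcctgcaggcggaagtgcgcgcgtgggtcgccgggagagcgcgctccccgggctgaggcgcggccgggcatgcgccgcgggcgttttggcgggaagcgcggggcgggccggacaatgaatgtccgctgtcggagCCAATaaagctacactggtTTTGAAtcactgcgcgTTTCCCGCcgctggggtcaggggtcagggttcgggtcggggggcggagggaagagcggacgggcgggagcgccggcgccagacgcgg
Ipo4: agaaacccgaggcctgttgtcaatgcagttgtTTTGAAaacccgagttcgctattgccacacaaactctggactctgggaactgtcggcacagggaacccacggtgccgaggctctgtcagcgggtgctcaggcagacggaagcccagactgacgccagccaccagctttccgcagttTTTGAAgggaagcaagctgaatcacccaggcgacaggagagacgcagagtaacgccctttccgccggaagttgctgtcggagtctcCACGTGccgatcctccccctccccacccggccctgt
Nup210: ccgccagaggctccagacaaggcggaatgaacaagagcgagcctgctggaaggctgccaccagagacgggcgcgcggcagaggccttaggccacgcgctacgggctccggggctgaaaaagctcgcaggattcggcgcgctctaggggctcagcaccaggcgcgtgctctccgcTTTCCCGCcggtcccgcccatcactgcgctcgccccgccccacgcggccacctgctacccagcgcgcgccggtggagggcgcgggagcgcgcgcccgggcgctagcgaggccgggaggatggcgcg
In Kpna2 the CHR letters began at position -35 and CCAAT at positions -25 and 6, with the start site as 0. In Ranbp1 an E2F match at -37, a CHR match at -53 and CCAAT at -72 lay close together. Ipo4 had CHR matches at -218 and -72 and an E-box at 14. Nup210 had an E2F match at -76. A window was available for 40 of the 51 members. Counting a gene once if any of its windows held the letters, CCAAT occurred in 19 of the 40 (47.5%) against 41.1% of the 27025 genes in the whole table, the CHR in 9 (22.5% against 21.7%), the E-box in 8 (20% against 8.09%) and the E2F motif in 2, Nup210 and Ranbp1 (5% against 1.8%). The amino-acid response motif TGATGNAA occurred in 0 of 40 against 4.51% of all genes. No motif searched is contained in another, and a match is a description of the sequence only.

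SX-682 lowered more of these genes than it raised in all 3 lines. In Melan-A 30 of 48 members were lower and 6 higher (62.5% and 12.5%), against a background of 24.7% and 23.4% of the 18338 genes tested. In B16F10 29 were lower and 9 higher (60.4% and 18.8%, background 25.3% and 25.5%). The split was closer to even in B16F0, where 19 were lower and 15 higher (39.6% and 31.2%, background 25% and 25.1%). The median log2 fold change of the members was -0.19 for Melan-A, -0.04 for B16F0 and -0.17 for B16F10, beside 0.00 over all genes tested in each line. Calls are from edgeR's quasi-likelihood test at an adjusted p of 0.05. The background of calls is all genes that passed the expression filter, with no matching to the members in level. Many changes were small: when a log2 fold change of 0.25 or more in size was also required, 14 members were lower and 3 higher in Melan-A (29.2% and 6.25%, background 16.7% and 16.7%), 11 and 6 in B16F0 (22.9% and 12.5%, background 17.5% and 18%), and 16 and 5 in B16F10 (33.3% and 10.4%, background 18.4% and 19.6%).

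In all 3 lines 17 members were lower (35.4%, background 11.7%): the Ran cycle genes Ran, Rangap1, Ranbp1 and Ranbp3, the pore genes Nup35, Nup50, Nup85, Nup107, Nup133, Nup153, Nup155 and Ranbp2, the importin Kpna2, and Ipo8, Ipo9, Ipo11 and Ipo13. With DESeq2 the count was 16, as Nup133 in B16F10 (edgeR adjusted p = 0.049) lost its call. In all 3 lines 4 were higher, Ipo4, Xpo1, Xpo6 and Ranbp9 (8.33%, background 11.3%). In 7 members the changes called in 2 lines went in opposite directions (14.6%, background 9.59%): Kpna1, Kpna4, Kpna6, Kpnb1, Nup205, Nup210 and Xpo7. Nup37 and Ranbp17 were called in no line (4.17%, background 29.4%). Of the remaining 18 members, 9 were lower in 1 or 2 lines and 9 were higher in 1 or 2 lines, with no call in the other direction. The share of all genes tested with these patterns was not computed. Summed over the members, the level was 6674 and 6703 CPM in the Melan-A controls and 5697 and 5735 CPM with SX-682. In B16F0 the sum was 7724 and 7732 CPM in controls and 7550 and 7477 CPM with SX-682, and in B16F10 it was 7670 and 7678 CPM and then 6984 and 6955 CPM. The treated libraries were below the controls in each line.

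**Figure D1:**
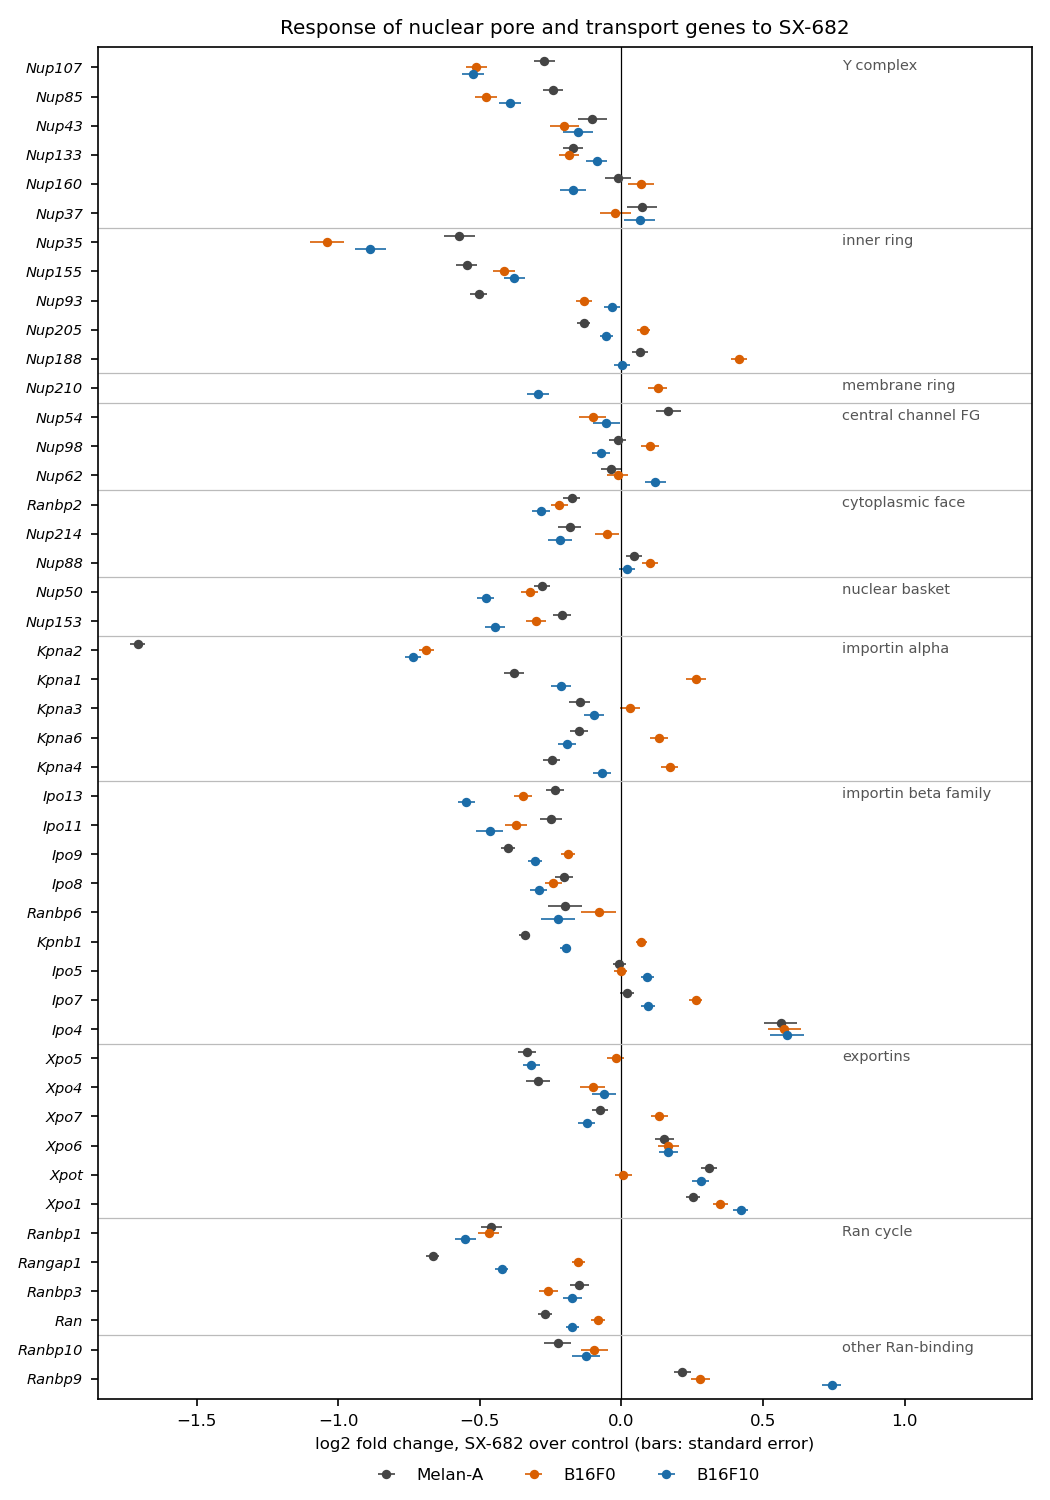
Log2 fold change with SX-682 over control (x axis) for 46 of the 48 tested members, ordered by class and then by mean change, in Melan-A (grey), B16F0 (orange) and B16F10 (blue), with bars for the standard error. Kpna2 in Melan-A lies farthest to the left at -1.71, and the importin alpha genes other than Kpna2 lie right of 0 in B16F0; Ranbp17, Nup210l and Nup210 in Melan-A, with few counts, are not drawn.

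The Y complex forms the outer scaffold of the pore on both faces and binds chromatin when pores are assembled. Of its 6 tested members, 3 were lower in Melan-A, 5 in B16F10 and 4 in B16F0 (background 24.7%, 25.3% and 25%). Nup107 was at 70.6 and 70 CPM in Melan-A controls and 58.3 and 58.1 CPM with SX-682, at 76.4 and 77.8 and then 53.3 and 54.9 CPM in B16F0, and at 67.7 and 68 and then 48.5 and 45.9 CPM in B16F10. Its treated libraries lay below the controls in every line, and the log2 fold change was -0.27 ± 0.036 (SE) for Melan-A, -0.51 ± 0.038 in B16F0 and -0.52 ± 0.039 in B16F10. Nup85, which sits in the short arm of the Y, went from 85.4 and 87.2 to 72.5 and 73.4 CPM in Melan-A, from 77 and 76.2 to 53.7 and 56.5 CPM in B16F0, and from 65.4 and 63.3 to 47.9 and 50.1 CPM in B16F10. For both genes the response of the B16 lines was more negative than that of Melan-A (difference -0.25 with edgeR adjusted p = 5.4e-05 for Nup107 and -0.19 with edgeR adjusted p = 0.00086 for Nup85). Nup37, also a Y complex subunit, stayed between 28.6 and 34.6 CPM in the 12 libraries, with log2 fold changes of 0.07, -0.02 and 0.06. Nup43 and Nup133 had log2 fold changes between -0.20 and -0.09 in the 3 lines, and Nup160 was lower in B16F10 alone among the calls (-0.17).

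The inner ring anchors the scaffold to the membrane and the central channel. Nup35, which bends the pore membrane, had the largest mean change of the pore genes. It was at 35.2 and 32 CPM in Melan-A controls and 22 and 23.2 CPM with SX-682. In B16F0 it was at 34.1 CPM in both controls and at 16.1 and 17.1 CPM with SX-682, and in B16F10 at 47.4 and 44.7 CPM and then 24.7 and 25.1 CPM. No treated library reached a control of its line. The change of Nup35 was -32.8% for Melan-A, -51.3% for B16F0 and -45.9% for B16F10 (edgeR adjusted p of 3.8e-10, 4.6e-15 and 2.6e-14). The fall was larger in the B16 lines than in Melan-A, by -0.39 ± 0.069 on the log2 scale (edgeR adjusted p = 3.1e-05). Nup35 shares 3.9% of its exonic bases with Dusp19 on the same strand.

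Nup155, a scaffold protein of the ring, went from 92.6 and 91.4 to 61.5 and 64.4 CPM in Melan-A, from 69.7 and 72.9 to 54.4 and 52.4 CPM in B16F0, and from 74.1 and 75.8 to 58.1 and 57.3 CPM in B16F10. Its log2 fold change was -0.55, -0.41 and -0.38, with no overlap between control and treated libraries. Nup93, a linker of the inner ring, differed more by line. It went from 90.8 and 88.2 to 63.9 and 62.3 CPM in Melan-A, from 188 and 184 to 172 and 168 CPM in B16F0, and from 230 and 225 to 222 CPM in both treated libraries in B16F10. Its log2 fold change was -0.50 ± 0.030 for Melan-A, -0.13 ± 0.028 for B16F0 and -0.03 ± 0.027 for B16F10, which did not pass the test in B16F10 (edgeR adjusted p = 0.34). The B16 response was higher than that of Melan-A by 0.42 ± 0.036 (edgeR adjusted p = 7.7e-11). Nup188 rose in B16F0 (0.42), and Nup205 was lower in Melan-A (-0.13) and higher in B16F0 (0.08).

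The FG nucleoporins of the central channel form its permeability barrier, and their 3 tested members moved little. Nup62, the central FG protein, was between 82 and 111 CPM in all libraries and rose by 8.66% in B16F10 only among the calls, from 99.3 and 96.8 to 105 and 108 CPM. That call was lost without control 2 (edgeR adjusted p = 0.098) or SX-682 library 2 (edgeR adjusted p = 0.091) of B16F10. Nup98 rose by 7.28% in B16F0, from 90.3 and 90.2 to 96.8 and 96.7 CPM, a call lost without B16F0 control 2 (edgeR adjusted p = 0.052). In Melan-A it was at 144 and 147 CPM and then 141 and 146 CPM, and in B16F10 at 132 and 126 CPM and then 123 and 122 CPM. Nup54 was called in Melan-A alone (0.17). Log2 fold changes of the 3 genes were between -0.10 and 0.17.

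On the cytoplasmic face, Ranbp2 encodes the large filament protein that binds Ran and SUMO-modified Rangap1. It was at 214 and 210 CPM and then 190 and 185 CPM in Melan-A, 166 and 168 and then 148 and 138 CPM in B16F0, and 238 and 232 and then 197 and 190 CPM in B16F10. The changes were -11.5%, -14.1% and -17.9%, and no pair of groups overlapped. Nup214, which docks exportin complexes, went from 63.5 and 68.3 to 56.7 and 59.4 CPM in Melan-A and from 69.2 and 66.5 to 60 and 56.8 CPM in B16F10. In B16F0 it was at 61.5 and 61.2 CPM and then 59.3 and 59.2 CPM, a difference that did not pass the test (edgeR adjusted p = 0.34). Nup88, its partner, was higher in B16F0 (0.10).

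The members that sit in the basket, Nup50 and Nup153, were lower in every line (background 11.7%). Tpr, the filament protein of the basket, is outside the symbol rule and was lower in Melan-A (-0.36) and B16F10 (-0.11) and higher in B16F0 (0.06, edgeR adjusted p = 0.03). Nup50, which helps release cargo from importin alpha, went from 137 and 139 CPM to 114 CPM in both treated libraries in Melan-A, from 128 and 126 to 99.1 and 104 CPM in B16F0, and from 167 and 168 to 120 and 119 CPM in B16F10. Nup153, which anchors the basket, went from 117 CPM in both controls to 102 and 101 CPM in Melan-A, from 120 and 116 to 99.1 and 91.8 CPM in B16F0, and from 97.8 and 95.4 to 71.4 and 70.3 CPM in B16F10. The change in B16F10 was -28.3% for Nup50 and -26.6% for Nup153, the largest of the 3 lines. Responses of both genes differed among the lines (edgeR adjusted p of 0.0004 and 0.00065), in a test that does not say which line differs. Their B16 response was more negative than that of Melan-A, by -0.12 (edgeR adjusted p = 0.0076) for Nup50 and -0.16 (edgeR adjusted p = 0.0021) for Nup153, while that of Tpr was higher by 0.34 (edgeR adjusted p = 1.8e-10).

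Importin alpha proteins recognise the classical nuclear localisation signal and bind importin beta. Kpna2, the form known for high levels in dividing cells, had the largest fall in Melan-A among the members called there. Its 2 Melan-A controls were at 367 and 371 CPM and the treated libraries at 112 and 114 CPM. In B16F0 it went from 402 and 397 CPM to 244 and 251 CPM, and in B16F10 from 247 and 246 CPM to 144 and 152 CPM. Groups were far apart in each line. The log2 fold change was -1.71 ± 0.027 for Melan-A, -0.69 ± 0.026 for B16F0 and -0.74 ± 0.027 for B16F10 (edgeR adjusted p of 9.8e-28, 2.4e-19 and 8.6e-20). The fall in Melan-A exceeded that in the B16 lines by 0.996 ± 0.033 on the log2 scale (edgeR adjusted p = 2.7e-20).

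**Figure D2:**
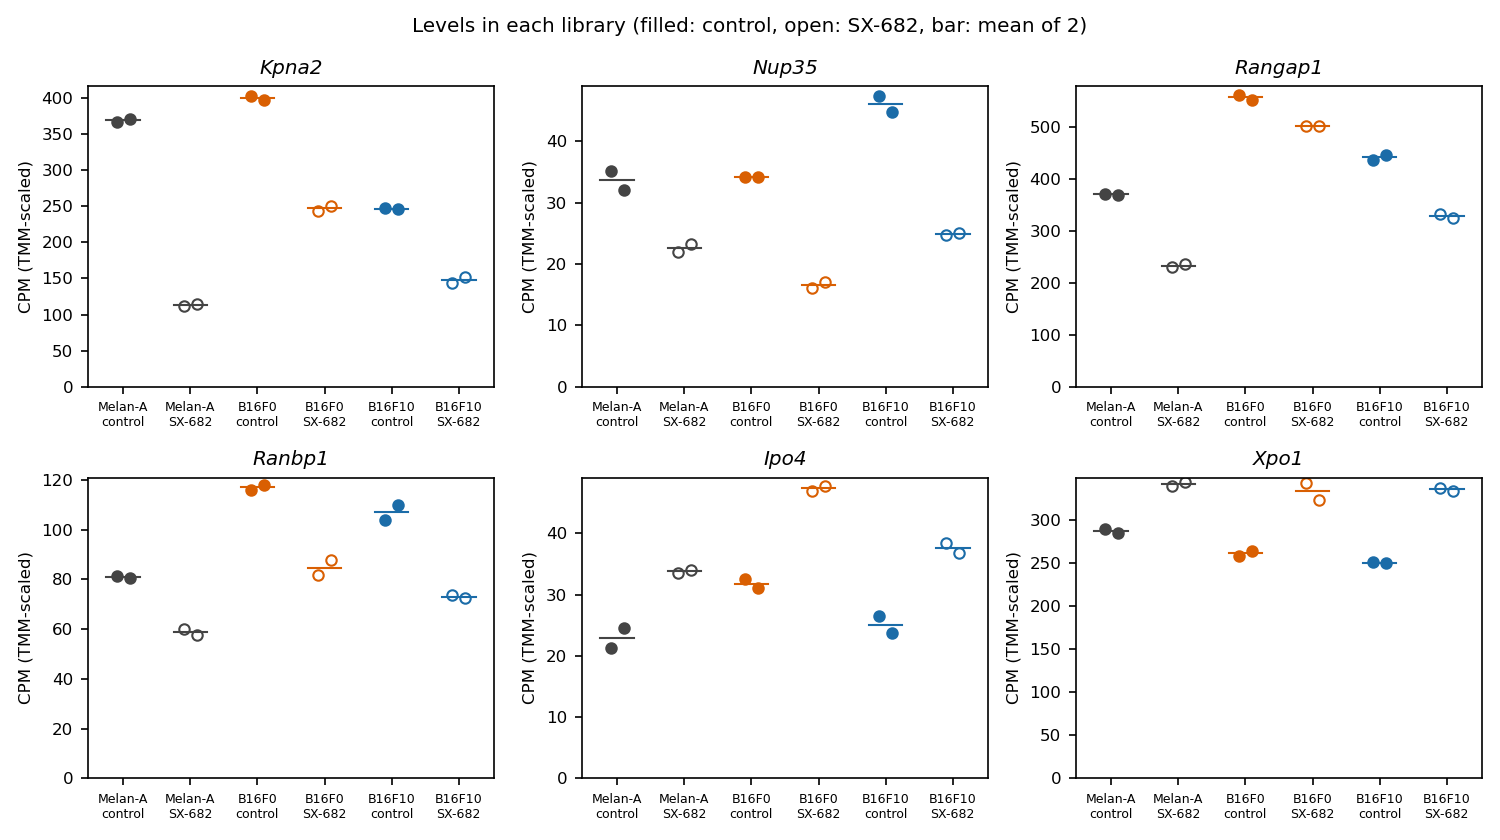
TMM-scaled CPM (y axis, from 0) of 6 members in the 12 libraries, by group, with filled points for controls, open points for SX-682 and a bar at the mean of each pair. Kpna2, Nup35, Rangap1 and Ranbp1 have both treated points below both controls in each line, and Ipo4 and Xpo1 have both above.

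The other importin alpha genes moved differently by line. Kpna1 went from 81 and 80.4 to 63.5 and 60.6 CPM in Melan-A and from 102 and 99.8 to 86.2 and 87.4 CPM in B16F10, but from 86.3 and 86.4 up to 107 and 99.6 CPM in B16F0. Its log2 fold change was -0.38 ± 0.036, -0.21 ± 0.036 and 0.26 ± 0.035 in Melan-A, B16F10 and B16F0. Kpna6 fell in Melan-A, from 94.9 and 96.9 to 85.5 and 87.3 CPM, and in B16F10, from 103 and 98.8 to 87.4 and 88.8 CPM, and rose in B16F0 from 102 CPM in both controls to 112 and 110 CPM. Kpna4 fell in Melan-A, from 168 and 163 to 141 and 139 CPM, and rose in B16F0, from 205 and 210 to 242 and 224 CPM, while in B16F10 it was at 215 and 210 CPM and then 201 and 204 CPM (-0.07 ± 0.031, edgeR adjusted p = 0.06). Thus all 5 tested importin alpha genes were lower in Melan-A (background 24.7%), 4 were lower in B16F10 (background 25.3%), and in B16F0 1 was lower and 3 were higher (background 25% and 25.1%). Kpna4 in B16F10 passed the test, as the last of the 5, with DESeq2 (adjusted p = 0.04), with its size factors in edgeR (adjusted p = 0.033) and in a separate edgeR fit of the line (adjusted p = 0.0067). The mean response of the 2 B16 lines was above that of Melan-A in all 5, by 0.11 (Kpna3) to 0.996 (Kpna2) on the log2 scale, but for Kpna6 only B16F0 was above (0.13), and B16F10 (-0.19) was below Melan-A (-0.15).

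These changes altered the makeup of the importin alpha transcripts. Per length, Kpna2 made up 68.4% and 68.7% of the 5 importin alpha transcripts in Melan-A controls and 43.2% and 44% with SX-682. The share was 64.8% and 64.5% and then 49.8% and 52.2% in B16F0, and 52.2% and 52.4% and then 41.4% and 42.2% in B16F10. The summed level fell in Melan-A from 187 and 188 to 90 and 90.3 CPM per kilobase. It went from 216 and 214 to 171 and 167 CPM per kilobase in B16F0 and from 165 and 163 to 121 and 125 CPM per kilobase in B16F10. The B16F0 libraries with SX-682 had a sum close to that of the B16F10 controls. The shares and sums are given as descriptions with no test.

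**Figure D3:**
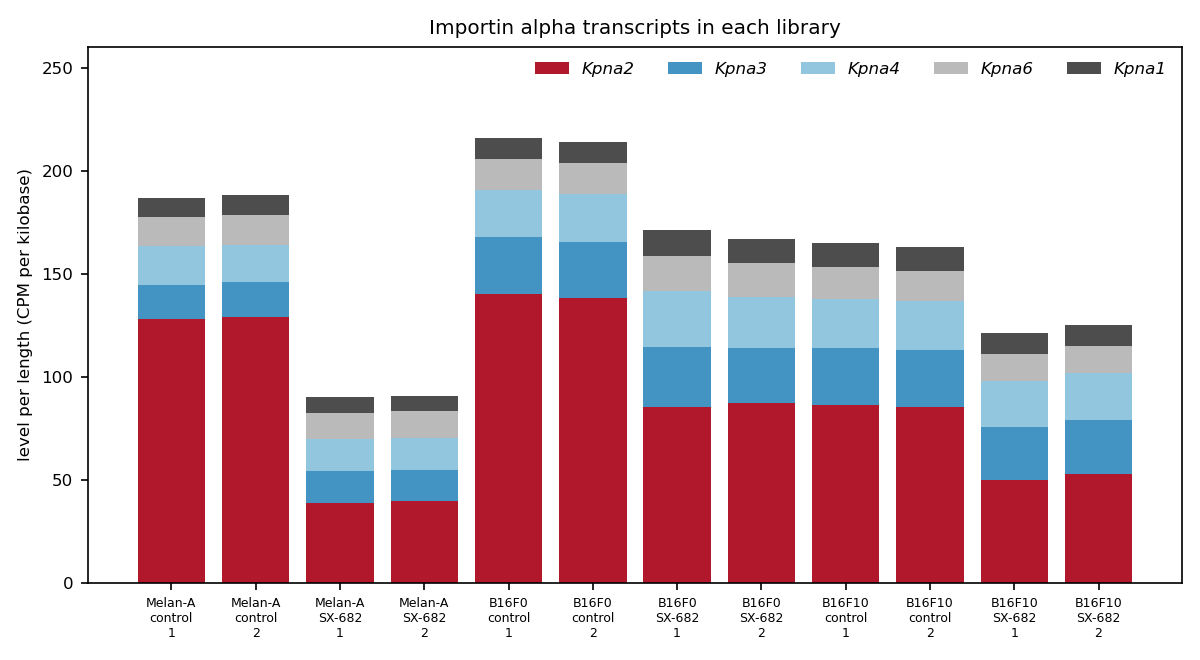
Level per length (CPM per kilobase, y axis from 0) of the 5 tested importin alpha genes, stacked, in each of the 12 libraries, labelled by line, group and replicate. The Kpna2 segment shrinks with SX-682 in each line, and the whole bar in Melan-A goes from 187 and 188 to 90 and 90.3.

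Kpnb1, importin beta itself, had the second highest level per length of all members (129 CPM per kilobase over the 12 libraries, after Ran at 217). It went from 932 and 935 to 737 and 736 CPM in Melan-A, from 909 and 928 to 806 and 796 CPM in B16F10, and from 834 and 835 up to 887 and 865 CPM in B16F0. The log2 fold change was -0.34 ± 0.020, -0.20 ± 0.020 and 0.07 ± 0.020, the last with an edgeR adjusted p of 0.0039, or 0.051 without SX-682 library 1 of B16F0. Kpnb1 thus shared the direction of Kpna1 and Kpna6 in each line.

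Ipo13, which carries cargo both ways, changed by -15% in Melan-A, from 77.9 and 81.5 to 68.4 and 67.2 CPM. In B16F0 it changed by -21.4%, from 123 and 124 to 97.9 and 95.9 CPM, and in B16F10 by -31.6%, from 189 and 188 to 132 and 126 CPM. Its B16 response was more negative than that of Melan-A, by -0.21 ± 0.039 (edgeR adjusted p = 5.6e-05). Ipo4, an importin of histones and ribosomal proteins, moved the other way. It was at 21.3 and 24.5 CPM and then 33.6 and 34.1 CPM in Melan-A, 32.5 and 31 and then 47 and 47.8 CPM in B16F0, and 26.5 and 23.7 and then 38.5 and 36.8 CPM in B16F10. Each treated library was above both controls of its line, and the level rose 1.48-fold in Melan-A, 1.49-fold in B16F0 and 1.5-fold in B16F10 (edgeR adjusted p of 2e-09, 9.9e-10 and 1.5e-09). The B16 minus Melan-A difference in response was 0.02 ± 0.072. Annotation places 55.3% of the exonic bases of Ipo4 also in Gm49378 on the same strand, which itself had 0 to 2 counts in each library. Of the remaining importin beta relatives, Ipo8, Ipo9 and Ipo11 were lower in all 3 lines (-0.47 to -0.19), Ranbp6 was lower in Melan-A and B16F10, Ipo7 was higher in both B16 lines (0.26 and 0.09) and Ipo5 was higher in B16F10 (0.09).

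Among exportins, Xpo1, which carries proteins with a leucine-rich export signal, rose in every line. It was at 290 and 285 CPM and then 340 and 345 CPM in Melan-A, 259 and 264 and then 343 and 324 CPM in B16F0, and 251 and 250 and then 338 and 334 CPM in B16F10. Controls and treated libraries did not overlap. The rise was 19.2%, 27.4% and 33.9% (edgeR adjusted p of 1.2e-09, 1.8e-12 and 2.1e-14), and was larger in the B16 lines than in Melan-A by 0.13 ± 0.032 on the log2 scale (edgeR adjusted p = 0.0012). Xpo6, the actin exporter, rose by 11.1% to 12.2% in the 3 lines. Xpot, the tRNA exporter, was higher in Melan-A (0.31) and B16F10 (0.28), with 0.01 in B16F0.

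Xpo5, which exports pre-microRNA, was lower in Melan-A (-0.33) and B16F10 (-0.32), with -0.02 in B16F0, and Xpo4 was lower in Melan-A (-0.30 ± 0.042). Xpo7 was higher in B16F0, from 101 and 104 to 113 and 111 CPM, and lower in B16F10, from 122 and 120 to 113 and 110 CPM. In Melan-A, Xpo7 went from 132 CPM in both controls to 124 and 127 CPM (-0.08, edgeR adjusted p = 0.031), a call lost with DESeq2's size factors in edgeR (adjusted p = 0.055). Ranbp17, a relative of Xpo7, had 448 to 592 counts in the B16F0 libraries and at most 8 in any other. It was at 7.9 and 7.29 CPM in B16F0 controls and 8.47 and 9.31 CPM with SX-682, a difference that did not pass the test (edgeR adjusted p = 0.3). In Melan-A and B16F10 its counts were too near the floor of 3 for a fold change with SX-682.

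All 4 Ran cycle genes were lower in every line (background 11.7%). Rangap1, which switches on the GTPase activity of Ran in the cytoplasm, was at 372 and 370 CPM and then 230 and 237 CPM in Melan-A. In B16F0 it was at 563 and 553 CPM and then 502 CPM in both treated libraries, and in B16F10 at 437 and 447 and then 333 and 326 CPM. The log2 fold change was -0.67 ± 0.024 for Melan-A, -0.15 ± 0.023 for B16F0 and -0.42 ± 0.023 for B16F10, and the B16 lines were above Melan-A in response by 0.38 ± 0.029 (edgeR adjusted p = 6e-12).

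Ranbp1, the cofactor of Rangap1, fell in the 3 lines. It went from 81.2 and 80.7 to 60.1 and 57.7 CPM in Melan-A, from 116 and 118 to 81.9 and 87.7 CPM in B16F0, and from 104 and 110 to 73.6 and 72.6 CPM in B16F10. The changes were -27.3%, -27.8% and -31.8%, and the test among lines gave an edgeR adjusted p of 0.26 with a B16 minus Melan-A difference of -0.05 ± 0.045. Ran changed by -17%, -5.64% and -11.3% in Melan-A, B16F0 and B16F10. Ran has processed copies elsewhere in the genome, and how reads that match several places were counted is not given in the sources used here. Ranbp3, a cofactor of Xpo1, had log2 fold changes of -0.15, -0.26 and -0.17.

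Ranbp9 and Ranbp10 encode related scaffold proteins of a ubiquitin ligase complex named for Ran binding. Ranbp9 was at 103 and 102 CPM and then 118 and 120 CPM in Melan-A, 62 and 62.6 and then 74.3 and 76.8 CPM in B16F0, and 54 and 53.6 and then 89.3 and 90.6 CPM in B16F10. It rose by 16%, 21.2% and 67.3%, and the responses differed among lines (edgeR adjusted p = 1.2e-10). Ranbp9 overlaps Nol7 on the opposite strand over 8.8% of its exonic bases, and whether counting used strand is not given in the sources used here. Ranbp10 was lower in Melan-A, from 36.6 and 38.6 to 32.5 and 31.9 CPM, and in B16F10, from 37.4 and 35.4 to 33.2 and 33.4 CPM, and in B16F0 was at 41.8 and 39.5 CPM and then 38.2 and 37.9 CPM (edgeR adjusted p = 0.1). Its B16F10 call was lost without control 1 (edgeR adjusted p = 0.28) and without either SX-682 library (edgeR adjusted p = 0.1 each).

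The response differed among the 3 lines in 34 of 48 members (70.8%, background 47.4%). Between the B16 lines and Melan-A it differed in 27 (56.2%, background 35.8%). Of these, 18 were higher in the B16 response and 9 lower, beside 3431 and 3128 of the 18338 genes tested. Those above were led by Kpna2 (0.996), Nup93 (0.42), Kpna1 (0.40) and Rangap1 (0.38), and included all 5 importin alpha genes and 4 of 5 inner ring genes. These are differences of the mean of both B16 lines, and for Kpna6 and Nup188 B16F10 lay below Melan-A (-0.19 against -0.15, and 0.00 against 0.07). Those below included Nup35 (-0.39), Nup107, Nup54 (-0.24), Ipo13, Nup85, Nup50 and Nup153. With a difference of at least 0.25 also required, 8 of the 27 remained (16.7% of the 48, background 23.9%). No such limit was applied to the test among lines, and the background was not matched to the members in level.

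A list of 12 cycling genes was measured beside the members, as Kpna2 is known to vary over the cell cycle. With SX-682, 12 of 12 were lower in Melan-A, 9 in B16F10 and 11 in B16F0 (background 24.7%, 25.3% and 25%). Their median log2 fold changes were -0.72, -0.23 and -0.44 in that order. Their summed level went from 3839 and 3851 to 2381 and 2384 CPM in Melan-A, from between 3634 and 3643 to between 2871 and 2879 CPM in B16F0, and from between 3462 and 3466 to between 2583 and 2638 CPM in B16F10. In the B16 lines Mki67, a marker of dividing cells, had log2 fold changes of 0.00, against -0.75 in Melan-A. In B16F10 the fall was uneven over the list, with Rrm2 at -1.39, Pcna at -0.90, and Mcm2 and Mcm5 at -0.60. The rest of the list lay between -0.26 (Cdk1) and 0.03 (Aurka) in that line. The part of cycling in the members' changes was not tested.

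Without treatment, transport genes tended to be higher in the melanoma lines. Of 48 members, 28 were higher in the B16 controls than in the Melan-A controls and 12 lower (58.3% and 25%, background 33.7% and 42.4%), with a median of 0.14 beside -0.09 over all genes. When at least 10 counts in every library were required, 22 members were higher and 15 lower. The median over all genes was then -0.01, and the background shares were not computed. Nup210, a membrane-spanning ring protein known to vary by cell type, differed most. It had 5 to 13 counts in the 4 Melan-A libraries (0.0701 to 0.151 CPM), 200 and 192 CPM in B16F0 controls and 69.6 and 69.7 CPM in B16F10 controls. From the summed counts, the ratio of B16F10 to Melan-A controls was 588 (95% exact interval 384 to 950), which covers counting error only. With SX-682, Nup210 rose by 9.29% in B16F0, to 220 and 208 CPM, and fell by 18.5% in B16F10, to 57.1 and 56.4 CPM (edgeR adjusted p of 0.0018 and 1.2e-07). The rise in B16F0, on which its opposite directions rest, was lost without control 2 (edgeR adjusted p = 0.066) or SX-682 library 1 (edgeR adjusted p = 0.085) of B16F0.

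**Figure D4:**
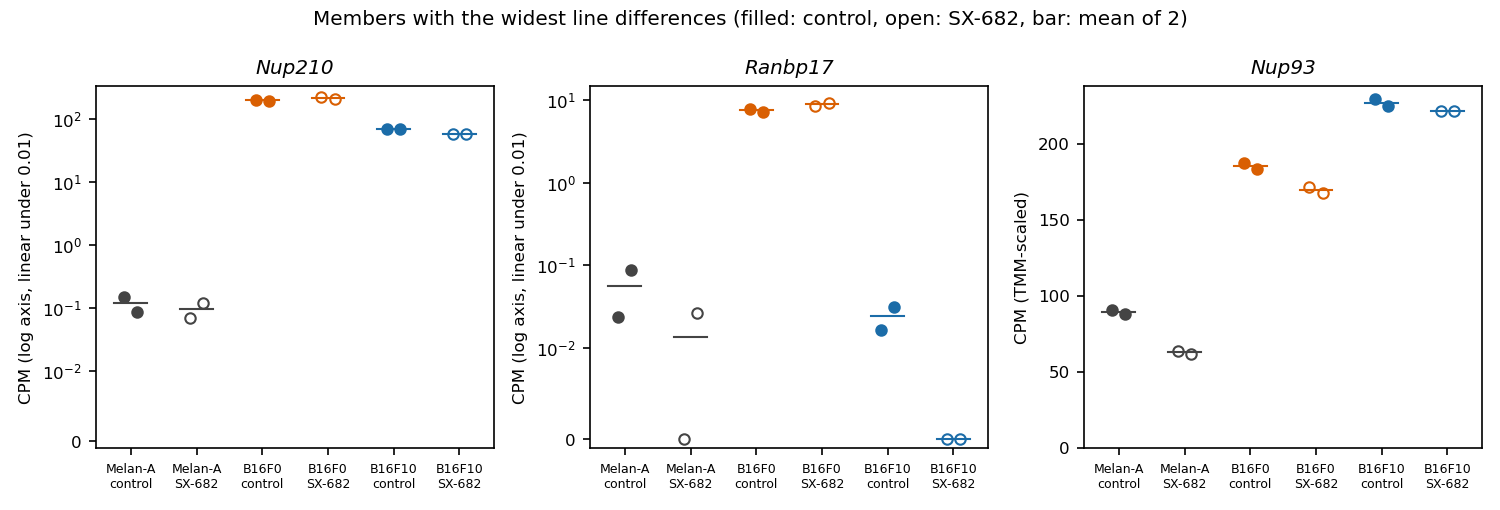
TMM-scaled CPM by group for Nup210 and Ranbp17 (log axes, linear under 0.01) and Nup93 (linear axis from 0), with filled points for controls, open points for SX-682 and a bar at the mean of each pair. Nup210 lies near 0.1 CPM in Melan-A and above 50 CPM in both B16 lines, Ranbp17 is above 7 CPM in B16F0 alone, and Nup93 rises from Melan-A to B16F10.

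Nup93 was higher in B16 than in Melan-A controls by 1.20 ± 0.026 on the log2 scale, and Ipo13 by 0.94 ± 0.028. Nup210l, a relative of Nup210 best known from testis, had only 14 to 55 counts per library. It was higher in B16 controls (1.03 ± 0.38), and, with SX-682, higher in B16F10, from 0.38 and 0.407 to 0.907 and 0.787 CPM (edgeR adjusted p = 0.019), with values of 0.441 and 0.387 and then 0.622 and 0.582 CPM in B16F0 and of 0.162 and 0.231 and then 0.252 and 0.266 CPM in Melan-A. The B16F10 call was lost without control 1, control 2 or SX-682 library 1 of that line (edgeR adjusted p of 0.084, 0.065 and 0.096). Ranbp9 was lower in B16 than in Melan-A controls by -0.82 ± 0.027. All 4 Ran cycle genes were higher in the B16 controls, by 0.31 to 0.66, as were 4 of 5 importin alpha genes (background 33.7%). Kpna2 was lower than in Melan-A on the mean of the B16 controls (-0.23), but its B16F0 controls (402 and 397 CPM) lay above Melan-A (367 and 371 CPM) and its B16F10 controls (247 and 246 CPM) below. Of the central channel genes, Nup98 (-0.43) and Nup62 (-0.26) were lower, and Nup54 was at -0.05. With DESeq2's size factors, 4 of the 40 calls were lost (Kpna6, Nup50, Ipo11 and Nup160) and none turned.

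Between the B16 lines, 22 members were higher in B16F10 controls than in B16F0 controls and 20 lower (45.8% and 41.7%, background 30.8% and 31.2%). Ranbp17 had 490 and 592 counts in B16F0 controls and 1 and 2 in B16F10 controls, a ratio of 316 (95% exact interval 108 to 1.53e+03, counting error only). Nup210 was lower in B16F10 by -1.49 ± 0.036, Ipo11 by -1.32 ± 0.041, and Kpna2 by -0.70 ± 0.026. All 4 Ran cycle genes were lower in B16F10, by -0.34 to -0.06 (background 31.2%). Higher in B16F10 were Ipo13 (0.61), Nup188 (0.53), Nup98 (0.51), Ranbp2 (0.50) and Nup35 (0.43). All 3 central channel genes were higher there, by 0.20 to 0.51 (background 30.8%).

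Transport genes that the symbol rule does not take in were examined from a list of 23, of which 22 were matched in the table and tested. With SX-682, 15 were lower and 3 higher in Melan-A (68.2% and 13.6%, background 24.7% and 23.4%), 14 and 4 in B16F0 (63.6% and 18.2%, background 25% and 25.1%), and 17 and 2 in B16F10 (77.3% and 9.09%, background 25.3% and 25.5%), with medians of -0.24, -0.19 and -0.24. In all 3 lines 11 were lower and 2, Rae1 and Tnpo2, were higher (50% and 9.09%, background 11.7% and 11.3%). Rcc1, the exchange factor that loads Ran with GTP on chromatin, had the largest mean fall, with changes of -31.9%, -31.2% and -43.8% in Melan-A, B16F0 and B16F10. It was at 58.2 and 59 CPM and then 41.3 and 38.6 CPM in Melan-A, 57 and 53.6 and then 38.3 and 37.9 CPM in B16F0, and 51.7 and 52.1 and then 30.3 and 28.1 CPM in B16F10. Alyref, an mRNA export adaptor, changed by -30.9%, -22.4% and -33.4%, from 153 CPM in both Melan-A controls to 106 and 105 CPM, from 130 and 126 to 101 and 97 CPM in B16F0, and from 112 and 111 to 75.7 and 72.8 CPM in B16F10. All these treated libraries were below their controls. Rae1, an mRNA export and spindle factor that binds Nup98, rose by 47%, 26.9% and 69.7%, from 50.5 and 52.2 to 78.2 and 72.8 CPM in Melan-A, from 58.6 and 60.3 to 77.5 and 73 CPM in B16F0, and from 53.2 and 51.6 to 89 and 88.8 CPM in B16F10. Cse1l, which returns importin alpha to the cytoplasm, was lower in all 3 lines (-0.58, -0.32 and -0.47).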

How the data were processed

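RNA of cell cultures was sequenced as 12 libraries (3 lines, control or SX-682, 2 libraries each). The authors deposited read counts per gene without normalization, on GRCm38 coordinates; the submitters' processing notes name cutadapt, STAR, DESeq2 and mm10, with no version, and whether counting used strand is not given in the sources used here. Counts were tested in R 4.3.3 with edgeR 4.0.16: TMM factors, the filterByExpr function (leaving 18338 genes), 1 quasi-likelihood fit of the 6 groups with no block, prior count 0.125, and p-values adjusted by Benjamini-Hochberg over those genes at 0.05. Standard errors are the log2 fold change over the root of F. Residual degrees of freedom were 6, the prior degrees of freedom 21.9 and the common coefficient of variation 2.78%. CPM per kilobase used the deposited gene lengths. DESeq2 1.42.0, other scalings, filters and thresholds, a replicate block and leaving out each library were tried.

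The labels do not say that the 2 libraries of a group are separate cultures, so p-values measure the spread between these libraries, which may be technical. Replicates differed by more than counting noise (chi-square per gene 2.73 to 5.05). A library total of 48876982 to 85322092 makes 3 counts, used as the floor, worth at most 0.0623 CPM. Where neither group exceeds the floor, no fold is given.

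The members, classes and lists were chosen with earlier results of these data known. Library values are given for the 2 members of each class with the largest absolute mean log2 fold change (mean CPM of at least 1), 6 members called in opposite directions, those called in no line, and the 4 and 2 with the largest differences between controls (B16 against Melan-A, B16F10 against B16F0). For the other transport genes, the 2 with the largest mean change in each direction are named. Ddx19b and Rae1 had the 2 largest mean rises, that of Ddx19b resting on few Melan-A counts. Cse1l, Tnpo2, Tpr, Tyr and Sox10 were added after their values were seen, as were other members named with a single value. Promoter windows are RefSeq's on GRCm38.p6, and exon overlaps are from GENCODE, whose gene coordinates equalled the deposited ones for the 49 members whose identifiers matched. Nup58 and Nupl1 were not analysed here.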

Additional observations from a re-analysis of the deposited data

Results flagged for a closer look

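In edgeR's interaction F-test, the response to SX-682 differed among the 3 lines for 21 of the 28 members named by the rule. The rule took some of these 28 because their calls went in opposite directions between lines. The 21 of 28 is therefore partly built in and cannot be set against a background share. Over all tested members the count was 34 of 48 (70.8%, background 47.4%). The range of the log2 fold change over the lines is given for each of the 21. Kpna2 had the widest range, 1.02, with the largest fall in Melan-A. Of the other importins, Kpna1 had a range of 0.64, Kpna4 of 0.42, Kpnb1 of 0.41, Kpna6 of 0.32 and Ipo13 of 0.31. Ranbp9 had a range of 0.53 and Rangap1 of 0.51.

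Among pore genes, Nup35 and Nup93 each had a range of 0.47, Nup35 with the smallest fall in Melan-A and Nup93 with the largest fall there. Nup107 had a range of 0.25, Nup85 of 0.24, Nup153 of 0.24, Nup50 of 0.20, and Nup155, Nup214 and Nup98 of 0.17 each. Nup62 had a range of 0.16. The range of Nup210, 0.43, includes a Melan-A value that rests on 5 to 13 counts per library, while its B16F0 and B16F10 changes had opposite signs. Xpo7 had a range of 0.26 and Xpo1 of 0.17, with Xpo1 higher in each line. The cause of these differences was not tested.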

How the results depend on the processing

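The 14 counts of members kept their size within 1.5 times under other scalings, filters, DESeq2, an adjusted p under 0.01 and leaving out any library, whereas limits on fold reduced them. A separate fit for each line could be run for 8 of the 14, the counts within lines, and kept these too. With log2 fold changes of 0.25 or more in size, members lower and higher were 14 and 3 in Melan-A, 11 and 6 in B16F0, 16 and 5 in B16F10, and 6 and 2 in all 3 lines. The B16 and Melan-A responses then differed in 8, 6 were lower in control B16 lines than in Melan-A, and 10 were higher and 13 lower in control B16F10 than in B16F0. At 0.5 the counts were 5 and 1 in Melan-A, 3 and 1 in B16F0, 5 and 3 in B16F10, 2 and 1 in all 3 lines, and 1 for the difference in response. For controls they were 8 higher and 1 lower in B16 lines and 3 higher and 5 lower in B16F10. For counts at 0.5, and at 0.25 for all 3 lines and for controls, the share over all genes tested was not computed. These counts therefore show only how many members pass each limit.

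Of the 84 log2 fold changes of the 28 named members, 1609 of 1671 recomputed values kept their direction and call, 28 lost the call, 23 gained it and 11 changed sign. In B16F0, Nup62 turned from -0.01 to 0.001 with DESeq2's size factors in edgeR and to 0.002 with DESeq2. Leaving out single libraries gave -0.07 to 0.044 for Nup62 in B16F0 and -0.062 to 0.00 in Melan-A, -0.032 to 0.024 for Nup98 in Melan-A, -0.734 to 0.124 for Nup210 in Melan-A, and -0.056 to 0.009 and -0.002 to 0.127 for Nup37 in B16F0 and B16F10, none of which passed the test with all libraries in. The Xpo7 call in Melan-A was lost in 10 of the 12 such fits. Same-numbered libraries showed no shared deviation (correlations 0.00108 in Melan-A, 0.0222 in B16F0, 0.00975 in B16F10). With 2 libraries per group, this cannot show whether the numbers pair the samples. With the replicate block, 30 members each were lower in Melan-A and B16F10, with 19 in B16F0. The share over all genes tested was not computed with the block. Counts of 5 to 55 per library limit Nup210 in Melan-A and Nup210l.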

Other observations

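Ddx19b, an mRNA export helicase at the cytoplasmic face, followed a line pattern like that of Nup210. It had 2 and 10 counts in the Melan-A controls and 6 and 23 with SX-682, and stood at 44.7 and 46.3 CPM in B16F0 controls and at 9.56 CPM in both B16F10 controls. The ratio of B16F10 to Melan-A controls was 141 (95% exact interval 80.5 to 274, counting error only). Its log2 fold change with SX-682 was 0.11 in B16F0 and 0.02 in B16F10, and its Melan-A value (1.52 ± 0.55, edgeR adjusted p = 0.021) rests on those few counts.

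Ratios between partner transcripts, per length, also shifted. Kpna2 over Kpnb1 was 0.904 and 0.911 in Melan-A controls and 0.348 and 0.356 with SX-682, 1.11 and 1.09 and then 0.632 and 0.666 in B16F0, and 0.624 and 0.608 and then 0.411 and 0.437 in B16F10. Ranbp1 over Ran went from 0.3 and 0.289 to 0.261 and 0.255 in Melan-A, from 0.265 and 0.263 to 0.2 and 0.204 in B16F0, and from 0.247 and 0.256 to 0.195 and 0.193 in B16F10. These ratios were not tested.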
